A study of Mus musculus with 9 samples.

Results

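The basic helix-loop-helix (bHLH) transcription factor genes Hand1, Hand2, Twist1, Twist2, Tcf21, Msc, Mesp1, Mesp2 and Tcf15 were followed in the accessible chromatin of the early mouse heart region. Members were the distinct regions whose assigned gene symbol was one of these 9 names, in the list of regions open in wild-type tissue. This gave 4 of 17164 regions, and 4 of the 9 genes had a region. Hand2, Twist1, Msc and Tcf15 had exactly 1 region each, as did 73.2% of the genes in the list, whereas Hand1, Twist2, Tcf21, Mesp1 and Mesp2 had none. Among all RefSeq protein-coding genes, 49.3% had at least 1 assigned region.

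The regions come from ATAC-Seq, an assay that marks accessible DNA by where the Tn5 transposase can cut and tag it. The tissue, heart with the adjoining pharyngeal mesoderm, came from embryos with 6 somites at embryonic day 8.75. The control embryos were wild type (wt in the labels). The series also holds Isl1-/- embryos, which lack the LIM-homeodomain factor Isl1, and Isl1Cre+/-/ Brg1fl/fl embryos, in which Cre expressed from the Isl1 locus removes Brg1, the ATPase of the SWI/SNF chromatin remodeling complex, from cells that express Isl1. Each of the 3 genotypes had 3 libraries, and regions of the mutants were not analysed here. The wild-type list holds only regions shared by the 3 libraries, with no height, read count or value per library. Depth is therefore unknown, and no replicate error or test accompanies the values. A gene either has a region in the list or has none, and a gene without one is not thereby shown to be closed. In bulk tissue, a site open in few cells and a site weakly open in many cannot be told apart.

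The label of the tissue was compared with marker genes. Of 5 pharyngeal mesoderm markers, 4 had a region and 3 had one within 1 kb of the start, with 9 regions for Isl1, 8 for Eya1 and 4 for Fgf10, while Tbx1 had none. All 5 heart muscle markers, Nkx2-5, Tnnt2, Actc1, Myh6 and Myl7, were without a region. Regions were assigned to 3 of 4 endothelial markers, 2 of 4 neural markers and 1 of 4 erythroid markers. A region within 1 kb of the start was found for 1, 2 and 0 of them. Among RefSeq coding genes, 49.3% had a region and 40.6% had one within 1 kb of the start. The part of these other tissues in the results was not tested.

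bHLH factors bind DNA as dimers through a basic stretch, and the helix-loop-helix joins the partners. The tissue-restricted class II factors listed here pair mainly with the broadly expressed E proteins and bind E-boxes, short sites with the letters CANNTG. Id proteins have the helix-loop-helix without the basic stretch and hold E proteins in dimers that cannot bind DNA. Hand1 and Hand2 act in the growing ventricles, the limb and the pharyngeal arches. Twist1 and Twist2 act in mesenchyme, and Tcf21 and Msc act together in the precursors of the jaw muscles, Tcf21 also in the epicardium. Mesp1 marks the earliest cardiac mesoderm, Mesp2 sets somite boundaries, and Tcf15 (paraxis) is needed for somites to become epithelial.

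The sequence just before the 4 open starts is shown because it lies inside each region and carries the promoter. For Hand2, Twist1 and Tcf15 it is the 300 bases before the GENCODE start, and for Msc it is the 108 bases between the start and the region's edge. All are mm9, written 5′ to 3′ on the strand of the gene, and capitals mark E-boxes.
Hand2 (chr8:59799480-59799779, plus strand): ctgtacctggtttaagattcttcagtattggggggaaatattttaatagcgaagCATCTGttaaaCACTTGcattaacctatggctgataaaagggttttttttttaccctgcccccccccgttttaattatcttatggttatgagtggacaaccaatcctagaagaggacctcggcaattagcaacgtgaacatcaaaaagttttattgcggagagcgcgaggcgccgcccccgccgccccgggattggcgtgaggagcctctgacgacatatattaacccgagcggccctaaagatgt
Twist1 (chr12:34642236-34642535, plus strand): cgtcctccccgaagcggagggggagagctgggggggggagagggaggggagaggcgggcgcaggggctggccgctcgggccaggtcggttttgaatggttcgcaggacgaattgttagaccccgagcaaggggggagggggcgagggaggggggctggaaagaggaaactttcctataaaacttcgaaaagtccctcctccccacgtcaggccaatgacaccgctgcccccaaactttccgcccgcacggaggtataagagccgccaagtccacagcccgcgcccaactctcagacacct
Tcf15 (chr2:151968997-151969296, plus strand): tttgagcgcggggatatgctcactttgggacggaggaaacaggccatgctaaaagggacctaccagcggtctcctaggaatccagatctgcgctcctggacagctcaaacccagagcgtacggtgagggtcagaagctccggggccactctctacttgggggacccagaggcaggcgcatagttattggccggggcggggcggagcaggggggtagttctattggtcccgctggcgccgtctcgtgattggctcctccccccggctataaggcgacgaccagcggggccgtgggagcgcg
Msc (chr1:14746048-14746155, minus strand): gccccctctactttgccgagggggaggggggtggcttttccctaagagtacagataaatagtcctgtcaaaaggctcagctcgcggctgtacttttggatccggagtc
Only the Hand2 sequence of these 4 holds E-boxes, CATCTG followed closely by CACTTG. An E-box of any kind was present in 70.4% of the 300-base windows before all coding starts, and CATCTG, read on either strand as CATCTG or CAGATG, in 15.5%. CATCTG is a form of E-box that Twist and Hand dimers are known to bind. The Hand2 window also held TAATTA, a homeodomain core (5.72% of all windows), which overlaps a GATA motif, AGATAA on the opposite strand (11.5%). The Msc stretch held AGATAA as well. All 9 starts were searched over 300 bases, that of Msc too, which held no E-box. Of the starts without a region, Hand1 had CAGATG and CAGGTG in this window, Mesp2 had CAGATG, Mesp1 and Tcf21 each had CAGTTG, and Twist2 had no E-box. CATCTG was thus present before 3 of the 9 starts, and 1 of those 3 was open. A match to these letters is a description of the sequence and not evidence of binding.

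Each member region lay over its own start. The center was 256 bp from the assigned start for Hand2, 114 bp for Twist1, 472 bp for Msc and -107 bp for Tcf15, where a negative value is upstream. A region within 1 kb of the start was thus found for 4 of the 9 genes, beside 40.6% of RefSeq coding genes by the assigned start and 44.4% of GENCODE coding genes by any annotated start. Of the genes in the list, 57.3% had a single region that lay within 1 kb of the start, as these 4 did. No region farther than 1 kb was assigned to any member, while 52.9% of all regions lay within 1 kb of their assigned start. Only 12.9% of RefSeq coding genes had 2 or more regions.

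**Figure D1:**
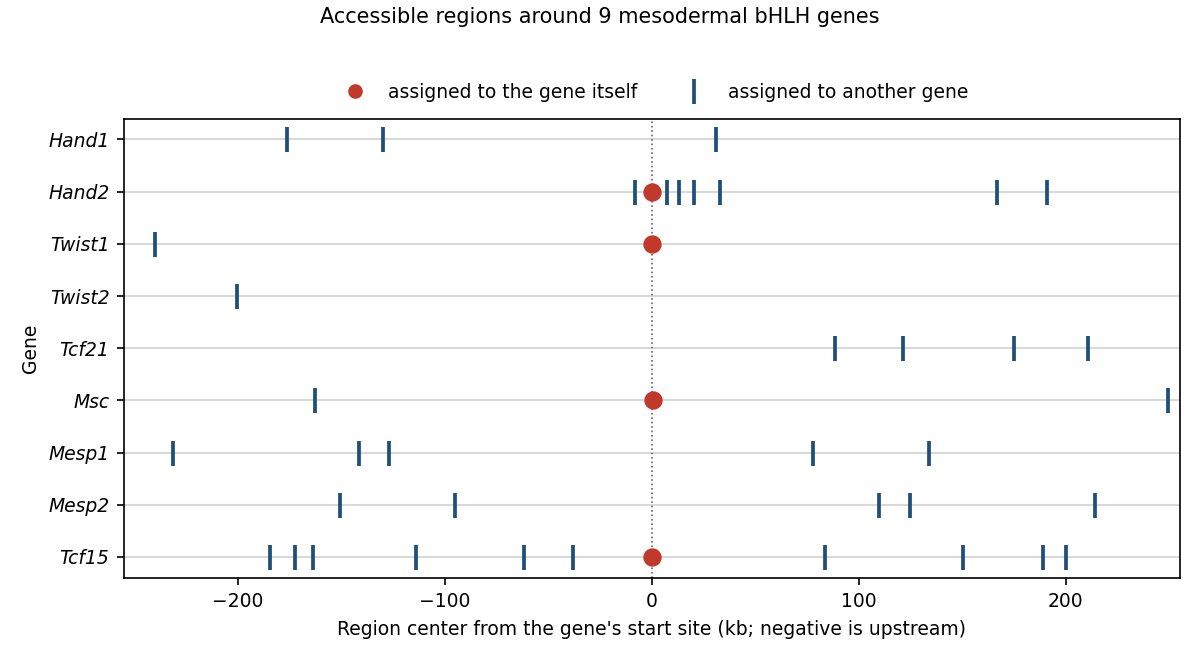
Accessible regions around the 9 genes, by distance of the region center from the gene's GENCODE start in kb, with the direction of transcription to the right. Circles are regions assigned to the gene itself and bars are regions assigned to other genes. Of the 4 genes with a circle, Hand2 alone has further regions within 30 kb of the start.

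Hand2, which is required for the right ventricle and the pharyngeal arches, had the region chr8:59799405-59800668, 1264 bp wide. It ran from -375 to 888 bp around the start and covered 889 bases of the first exon, all before the coding sequence. Twist1, a regulator of head mesenchyme and neural crest, had the region chr12:34641546-34643755. At 2210 bp this was the widest of the 4, and it was wider than 93.7% of all regions within 1 kb of a start. Of those, 9.97% were at least 2000 bp wide. The Twist1 region ran from -990 to 1219 bp and covered all 618 bases of the coding sequence, which lies in the first exon, and 252 bases of the intron.

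Msc, a repressor in jaw muscle precursors also called musculin, had the region chr1:14744995-14746155, 1161 bp wide. It ran from -108 to 1052 bp, so that most of it lay inside the gene, and covered 519 of 603 coding bases (86.1%). The region also covers the start of Gm9947, a protein-coding gene on the opposite strand, and accessibility cannot be divided between them. The start of Gm9947 lies nearer to the region's center than that of Msc. Tcf15 had the region chr2:151968714-151969763, the narrowest with 1050 bp. It ran from -583 to 466 bp and covered 402 of 585 coding bases (68.7%). Only 21.5% of regions within 1 kb of a start were narrower than that of Tcf15, compared with 34.7% for Msc and 46.5% for Hand2. The median within 1 kb of a start was 1294 bp, and Twist1 alone was wider.

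**Figure D2:**
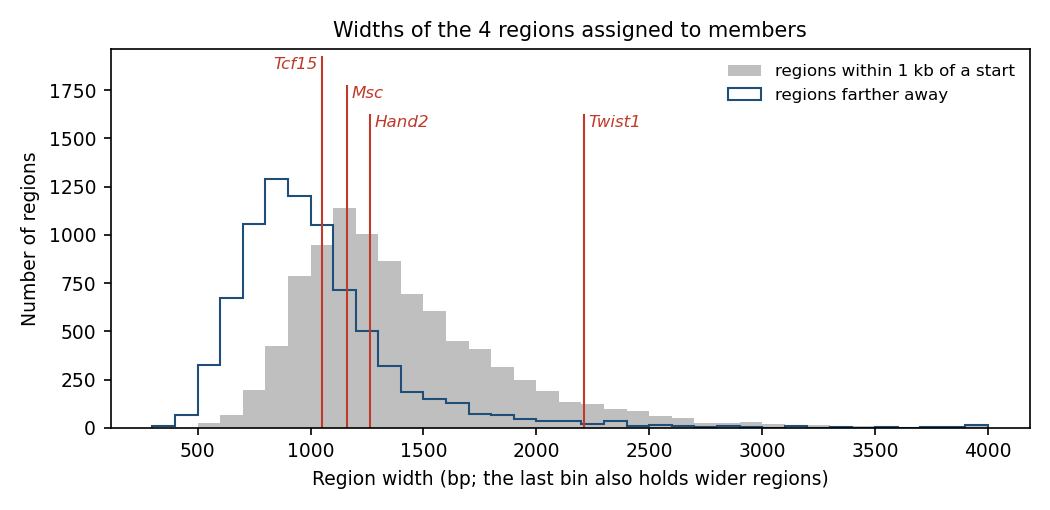
Widths in bp of all 17164 regions, split into those within 1 kb of the assigned start (gray) and those farther away (blue line), with the number of regions per 100-bp bin. Red lines mark the Tcf15 (1050 bp), Msc (1161 bp), Hand2 (1264 bp) and Twist1 (2210 bp) regions.

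Over their whole width, the 4 regions were rich in G and C. GC content was 61.6% for Hand2, 67.3% for Twist1, 63.0% for Msc and 64.2% for Tcf15, and the median of regions within 1 kb of a start was 58.1%. CpG dinucleotides per 100 bp were 8.31 for Hand2, 8.82 for Twist1, 6.72 for Msc and 10.6 for Tcf15, all above the median of 5.94. The Tcf15 region exceeded 97.1% of the regions within 1 kb of a start in CpG frequency. In the central 300 bases, however, the Hand2 region had 53.7% GC and 4.67 CpG per 100 bp. Medians there were 66.3% and 9.0 for regions within 1 kb of a start, and Twist1, Msc and Tcf15 lay above both.

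CpG frequency was also measured in the 500 bp on each side of the start, where it can be given for genes with and without a region alike. A gene with several annotated starts was given the highest CpG frequency among them. Here a gene is called open where the list has a region within 1 kb of any of its starts, which need not be that same start. Of the members, only Hand1 had more than 1 annotated start, while the deciles mix genes with 1 start and with several. Genes with CpG-rich starts were open more often in the list as a whole, so each member is set beside coding genes of the same decile. In the top decile, Twist1 with 11.4 and Tcf15 with 11.7 CpG per 100 bp were open, as were 76.7% of coding genes. Msc with 5.89 lay on the border of deciles 6 and 7, where ties were split by order. It was placed in decile 7, of which 70.9% were open. Hand2 with 5.29 and Mesp2 with 5.0 shared decile 6, of which 65.8% were open, and Hand2 was open and Mesp2 was not. Mesp1 with 3.6 and Tcf21 with 3.8 fell in decile 5 (54.3% open), and Hand1 with 3.10 in decile 4 (23.0% open). Twist2 had 8.99 CpG per 100 bp, in decile 9, and had no region although 73.5% of that decile did. Its start had more CpG than those of Hand2 and Msc, which were open.

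**Figure D3:**
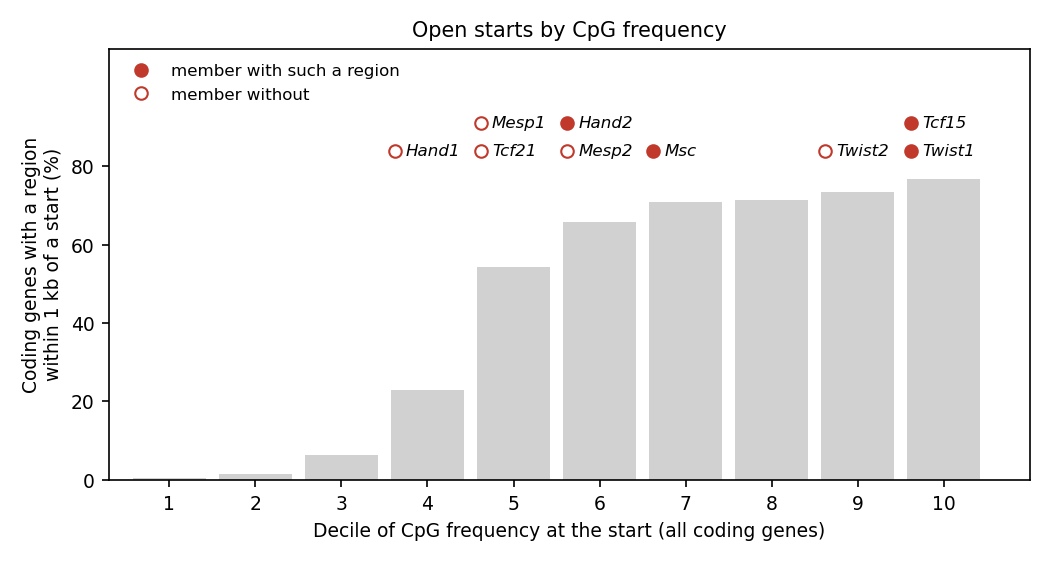
Gray bars give the percentage of coding genes with a region within 1 kb of any start, for each decile of CpG frequency at the start. For genes with several starts, the highest CpG frequency among them was used. Filled circles name members with such a region and open circles members without, placed above their decile. Twist2 is the member without a region in the highest decile, decile 9, where 73.5% of coding genes had one.

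Of the 9 loci, Hand2 had the most regions close to its start. Within 50 kb of the Hand2 start there were 6 regions, and 99.1% of coding genes had fewer (0.900% had 6 or more). Wider windows set Hand2 less apart. Within 100 kb there were still 6, and 91.6% of coding genes had fewer, and within 250 kb there were 8, and 74.9% had fewer. The 6 regions within 50 kb spanned 42454 bp, of which 7823 bp were covered, and the gaps between them were 4007 to 11630 bp. The median gap over the whole list was 72839 bp. Only the region at the start was assigned to Hand2. The region centered at -8383 bp, chr8:59790739-59792055, was assigned to the noncoding transcript Uph. From its deposited distance, the Uph start lies 124 bp from that of Hand2 if Uph is read on the minus strand, so that the region at the Hand2 start also spans that of Uph.

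The other 4 regions were assigned to the long noncoding RNA gene 5033428I22Rik, which starts 11135 bp downstream of the Hand2 start. Their centers lay 7548, 13107, 20151 and 32850 bp from the Hand2 start. The region at 7548 bp, chr8:59806415-59808241, was 1827 bp wide and wider than 96.1% of regions over 1 kb from a start. The region at 13107 bp, chr8:59812249-59813525, was 1277 bp wide and lay in an intron of the noncoding gene. The regions at 20151 bp, chr8:59819425-59820437, and 32850 bp, chr8:59832068-59833192, were 1013 and 1125 bp wide. With each region given instead to the nearest protein-coding start, all 6 belonged to Hand2. Which gene these regions act on was not tested.

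**Figure D4:**
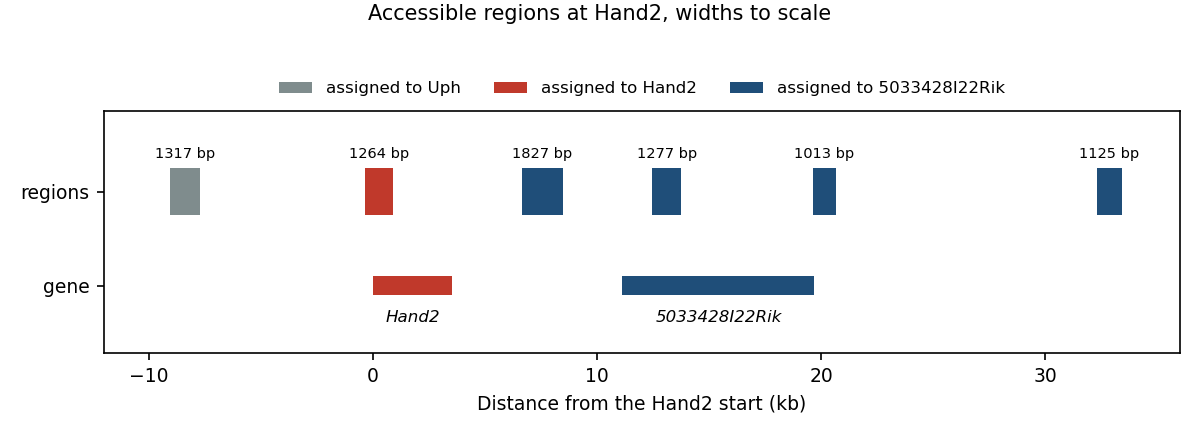
Map of the Hand2 locus by distance in kb from the Hand2 start, with region widths to scale and printed in bp. Colors give the assigned gene, and bars in the lower row are the annotated Hand2 and 5033428I22Rik genes. A single region (red, 1264 bp) lies on the Hand2 start, 1 lies upstream and 4 lie downstream.

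Over whole regions, the 5 regions beside the Hand2 start were less rich in GC than the region on it. Their median GC content was 52.8% and their median CpG frequency 4.54 per 100 bp, while the region at the start had 61.6% and 8.31. In the central 300 bases the order differed. GC content there was 53.7% at the start and, from upstream to downstream, 61.7%, 52.3%, 55.0%, 66.3% and 59.3% at the 5 others. CpG frequency there was 4.67 per 100 bp at the start and 4.0 to 7.0 at the 5 others. Whole regions over 1 kb from a start had medians of 47.5% GC and 1.35 CpG per 100 bp in the list, and the 5 regions were above both. Each was also set beside whole regions of like distance, 1 to 10 kb or 10 to 100 kb, measured to the assigned start and not to Hand2. The region at 13107 bp, in the class 1 to 10 kb, exceeded 46.2% of its class in GC content. The others exceeded 56.5% to 78.0% of theirs. E-boxes of the 5 regions were denser as a set than the 2.37 per kb of the region at the start. Over whole regions the 5 had 35 E-boxes, or 5.34 per kb, beside 5.04 per kb in all regions over 1 kb from a start. Of these 35, 9 were CATCTG, which is 1.37 per kb beside 0.778 per kb. The CATCTG count was 0 at -8383 bp, 2 at 7548 bp, 1 at 13107 bp, 2 at 20151 bp and 4 at 32850 bp. At least 1 match was present in 53.4% of all regions over 1 kb from a start, at least 2 in 19.3% and at least 4 in 1.34%. The count thus varied from 0 to 4 among neighbors in one locus.

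The central 300 bases of the 3 regions in which CATCTG or CAGATG falls near the center are shown, again with E-boxes in capitals. CATCTG was present in this central window in 21.8% of regions over 1 kb from a start.
Hand2 +7548 (chr8:59807179-59807478, plus strand): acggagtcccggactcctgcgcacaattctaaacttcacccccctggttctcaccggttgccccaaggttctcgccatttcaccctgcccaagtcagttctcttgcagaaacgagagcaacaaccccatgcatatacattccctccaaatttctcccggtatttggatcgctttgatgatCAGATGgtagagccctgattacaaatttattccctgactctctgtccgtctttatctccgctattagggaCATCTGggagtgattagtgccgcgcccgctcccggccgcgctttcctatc
Hand2 +20151 (chr8:59819782-59820081, plus strand): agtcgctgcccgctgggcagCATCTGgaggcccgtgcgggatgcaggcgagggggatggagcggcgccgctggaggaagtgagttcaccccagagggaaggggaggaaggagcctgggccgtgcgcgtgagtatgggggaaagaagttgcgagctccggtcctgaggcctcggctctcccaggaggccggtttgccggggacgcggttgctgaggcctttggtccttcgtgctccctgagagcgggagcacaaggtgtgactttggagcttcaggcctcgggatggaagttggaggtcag
Hand2 +32850 (chr8:59832481-59832780, plus strand): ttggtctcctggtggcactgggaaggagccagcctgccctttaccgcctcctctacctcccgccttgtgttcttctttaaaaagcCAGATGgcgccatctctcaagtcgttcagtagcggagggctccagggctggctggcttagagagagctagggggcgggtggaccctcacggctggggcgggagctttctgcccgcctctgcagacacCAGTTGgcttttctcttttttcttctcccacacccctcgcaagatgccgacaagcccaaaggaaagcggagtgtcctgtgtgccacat
The window at 7548 bp holds the site once in each orientation, and 2 or more occurred in 2.66% of the windows over 1 kb from a start. It also held AGATAA, present in 14.5% of such windows, and GGAATG, the site of TEAD factors, present in 22.2%. The window at 20151 bp held GGTGTGA, a T-box site present in 4.07%. The central windows at -8383 and 13107 bp had 1 E-box each, CATTTG and CAAGTG. None of the 5 central windows held TAATTA, which was present in 8.11% of regions over 1 kb from a start.

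In the regions at the 4 member starts E-boxes were sparser. The whole regions held 12 E-boxes, or 2.11 per kb, beside 3.71 per kb in all regions within 1 kb of a start. The Twist1 region had 1 in 2210 bp (0.453 per kb), Tcf15 had 2, Hand2 had 3 and Msc had 6 (5.17 per kb). Of these, 1 in Hand2 and 1 in Msc was CATCTG, which 46.4% of regions within 1 kb of a start held at least once. In the central 300 bases only Msc had an E-box, CAGGTG, whereas 56.4% of regions within 1 kb of a start and 65.7% of all regions had one. CAGGTG is the form that Snail repressors and E proteins bind.

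**Figure D5:**
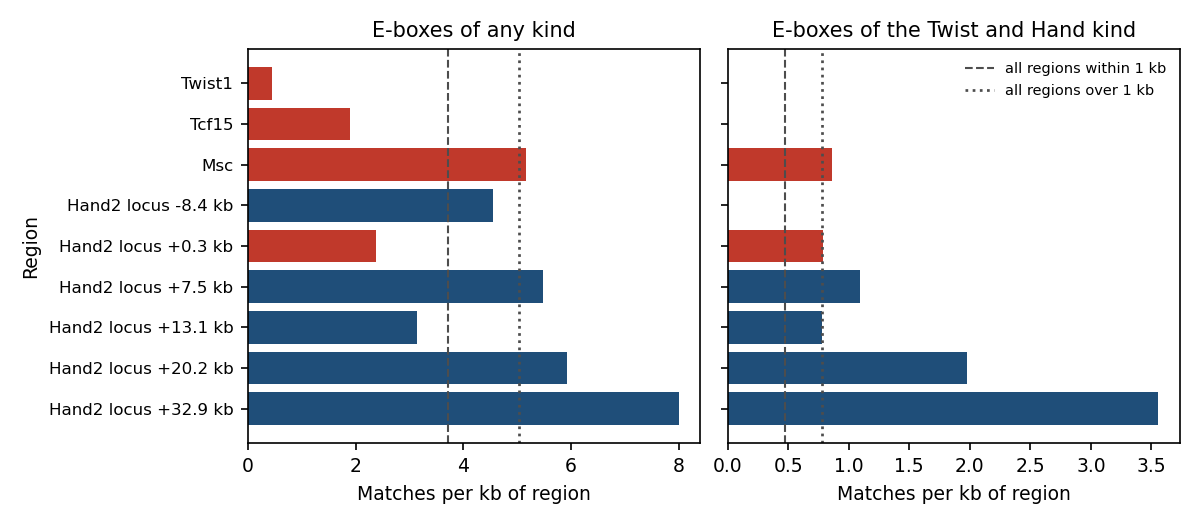
E-boxes per kb of region (left, any kind; right, the CATCTG kind of Twist and Hand) in the member regions (red) and the 5 other regions at Hand2 (blue), which are named by distance from the Hand2 start. Vertical lines give the density over all regions within 1 kb (dashed) and over 1 kb (dotted) from a start. The Twist1 region has the fewest E-boxes (0.453 per kb) and the Hand2 region centered at 32850 bp the most (8.0 per kb).

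Within 50 kb of the start, the other open members had fewer regions than Hand2. Twist1 and Msc had 1 region there, their own, and Tcf15 had 2. The Twist1 region had no neighbor for 238444 bp on one side and 346289 bp on the other. The only other region within 250 kb of Twist1 was assigned to Ferd3l, a bHLH gene of the nervous system, and was centered at -239956 bp. The Msc region had gaps of 247568 and 162472 bp, and a region assigned to Eya1 was centered 249211 bp downstream. Tcf15 lay in a denser neighborhood with 11 regions within 250 kb, more than 90.0% of coding genes. Of the 10 not assigned to Tcf15, 7 lay within 1 kb of the starts of their own genes, such as Srxn1 and Csnk2a1. At Hand2, 5 of the 7 other regions within 250 kb were farther than 1 kb from their assigned starts, and the remaining pair were the promoter regions of Sap30 and Hmgb2.

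Of the members without a region, Hand1, the relative of Hand2 that acts in the left ventricle and extraembryonic mesoderm, came closest to one. The nearest region was 30383 bp away and covered the start of Sap30l. Within 250 kb of Hand1 there were 3 regions, and 2 of them lay within 1 kb of the starts of Sap30l and Larp1. The nearest region to Mesp1 was 78063 bp away and to Mesp2 at -95002 bp. This was the same region for both, assigned to Kif7, since the Mesp starts are 16939 bp apart. The nearest region to Tcf21 was 88476 bp away, over the start of Tbpl1. Twist2 was the most isolated member, with its nearest region at -200487 bp, assigned to Asb1, a distance greater than for 91.8% of coding genes.

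No region lay within 50 kb of Twist2, Tcf21, Mesp1 or Mesp2, as was the case for 28.1% of coding genes. Within 100 kb Twist2 alone had none, beside 16.9% of coding genes. The median number of regions within 100 kb of a start was 1 for the 9 members and 2 for all coding genes. Among close relatives, a region was listed at Hand2 and not Hand1, at Twist1 and not Twist2, and at Msc and not Tcf21. Neither Mesp gene had one. The region at Msc went to Gm9947 when given to the nearest protein-coding start. Of RefSeq coding genes, 49.3% had a region, and the share of split pairs among other genes was not computed. The splits are therefore not read as a trait of these genes.

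Counts for gene lists are read beside the 49.3% of RefSeq coding genes with a region and the 40.6% with one within 1 kb of the start. Of the dimer partners, the 3 E protein genes all had a region, with 1 for Tcf3, 1 for Tcf12 and 5 for Tcf4, and Tcf3 and Tcf4 had one within 1 kb of the start. Among the 4 Id genes, Id2 and Id4 had 2 regions each and Id3 had 1, and Id1 had none, so that 3 of 4 had a region and 2 of 4 had one within 1 kb of the start.

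Of 12 regulators and partners of the Hand genes, 9 had a region and 4 had one within 1 kb of the start (33.3%, below the 40.6% of coding genes), with 24 regions in all. Isl1 had 9, Mef2c, a muscle and heart transcription factor, had 5, and Ednra, the endothelin receptor upstream of Hand2 in the arches, had 4. Zfpm2, Phox2a, Dlx5, Gata4, Bmp4 and Edn1 had 1 each, and Dlx6, Gata6 and Nkx2-5 had none. In the Mesp and somite pathway 6 of 12 genes had a region, a share close to that of coding genes, and 4 had one within 1 kb of the start. The 6 genes, with 1 region each, were Meox2, Lfng, Ripply1, Ripply2, Eomes and Epha4. T and Tbx6, T-box activators upstream of the Mesp genes, had none, nor did Dll1, Dll3, Hes7 and Meox1. In the Twist and mesenchyme pathway 8 of 12 genes had a region (66.7%) and 5 had one within 1 kb of the start (41.7%), with 4 for Cdh2, 3 for Zeb2 and 2 for Msx2, and with 1 each for Snai1, Snai2, Prrx1, Tgfb2 and Fgfr2. Pdgfra, Fgfr1, Zeb1 and Alx4 had none.

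Among other bHLH genes, 4 of 13 further class II genes had a region (30.8%), namely Tal1 with 2, and Tal2, Ferd3l and Tcf24 with 1 each, and only that of Tcf24 lay within 1 kb of the start. Scx, the tendon factor, and Msgn1, which acts in presomitic mesoderm, were without one. Of the 4 myogenic genes, Myf6 had 2 regions and Myf5 had 1, and Myod1 and Myog had none. Of 15 neural bHLH genes 10 had a region (66.7%) and 5 had one within 1 kb of the start (33.3%), with 17 regions in all and 4 for Atoh1.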

How the data were processed

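The genotype label of each ATAC-Seq library gave its group, and values of the wild-type control alone (3 of 9 libraries) were used, as 1 list. According to the methods, the authors mapped reads to mm9 with bowtie2, kept proper pairs (samtools), marked PCR duplicates for removal (Picard 1.136) and ran MACS14 on every library. Blacklisted peaks were removed, and bedtools 2.15 kept regions that overlapped between replicates by at least 1 bp. The deposited columns are start, end and distance to the assigned start in bp, with no signal. A fixed tag extension widens regions, so edges are not insertion sites. The methods name the closest start as the rule for ChIP-Seq peaks. For the ATAC-Seq regions the rule is not given in the sources used here.

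Start and end were read as 1-based and inclusive, and 17432 rows gave 17164 distinct regions. Sequence and gene models came from NCBIM37 (the build of mm9) with its GENCODE annotation, and the coding background from RefSeq by accession, symbol, then synonym. Windows reached 50, 100 or 250 kb on each side of the most upstream start, nearest distances were to any start, and motifs were counted on both strands. No test was run. Scripts were tested on simulated data. All members with a region were named, and other genes by list. The result of 1 gene and comparisons with other gene families are not reported here. The rule for genes of like pattern needed 2 or more regions, which no member had. Members and lists were chosen with earlier results of these data known, and the windows before the starts and the windows printed were chosen after values were seen. Alternatives changed the gene assignment, the distance, the width, the window or the part of the region searched. Python 3.11.15, numpy 2.4.6, pandas 2.3.3 and pysam 0.24.0 were used.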

Additional observations from a re-analysis of the deposited data

How the results depend on the processing

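Of 18 alternative values, 13 stayed within 1.5 times the count reported, or within the spread of the 4 regions or the Wilson interval. These limits are wide with 4 regions, so the 13 are weak evidence of stability. The Wilson interval for 0 of 4 reaches 49.0%. It held the TAATTA share, which was 0% in the central 300 bases and 25.0% over whole regions. Given to the nearest protein-coding start, 8 regions belonged to the members in place of 4, with 6 for Hand2, 1 for Twist1, 1 for Tcf15 and 0 for Msc, whose region then went to Gm9947. By the nearest start of any gene the count was again 4, but with 2 for Hand2, 1 for Twist1, 1 for Tcf15 and 0 for Msc. The median number of regions around a member's start was 4 within 250 kb. Median GC content was 71.2% in the central 300 bases and 63.6% over whole regions (SD over the 4 regions 2.46 percentage points). In the central 300 bases the Hand2 region had 53.7%, and the median of all regions within 1 kb of a start was 66.3%. The share of member regions with CATCTG, and likewise with AGATAA, was 0% in the central 300 bases and 50.0% over whole regions. With all rows, other distances from the start or the wider regions alone, the counts were 3 or 4. A median width of distal member regions could not be given, since 0 member regions lay over 1 kb from the start. No paired analysis was possible because no result comes from a test and the list holds no value per library, and for the same reason no library could be left out. Unknown depth limits what the lack of a region can show.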
